A study of Homo sapiens with 8 samples.

Results

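The enzymes examined here carry squalene to cholesterol: SQLE, LSS, TM7SF2, MSMO1, NSDHL, HSD17B7, EBP, SC5D and DHCR7. They were taken by gene symbol and are 9 of the 57189 genes in the count files. All 9 had enough reads to be tested, among 13280 genes that were. Messenger RNA was sequenced from TIB153 and CUTLL1 cells (the labels write CUTTL1), a pair of established lines of human T-cell acute lymphoblastic leukaemia grown in serum-containing medium. Cells of each line were exposed to 1 µM PKF118-310 for 24 h, a dose and time given by the study and not by the labels, or were kept as controls, which the study calls placebo-treated. PKF118-310 is a small molecule that inhibits the pairing of β-catenin with TCF transcription factors, the last step of canonical WNT signalling. The study also reports that both lines lost viability at this dose and time, with markers of apoptosis after treatment. The comparison shows which genes differ after exposure. Loss of that step and the decline of the cultures cannot be told apart in it. Each of the 4 groups (CUTLL1 with PKF118-310, CUTLL1 control, TIB153 with PKF118-310, TIB153 control) held 1 library, sequenced in 2 lanes that were summed, so values within a line carry no replicate error.

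Cholesterol is made in the endoplasmic reticulum in a proximal arm, which builds squalene from acetyl-CoA through mevalonate, and a distal arm, which closes the sterol rings and trims them to cholesterol. Transcription of both arms is controlled by SREBF2, a membrane-bound factor that is released when sterols run low, and which acts on promoters together with NF-Y at CCAAT boxes and with Sp1 at GC boxes. Dividing leukaemic cells need the product for new membranes and can also take it up from outside. In pathway order, SQLE epoxidises squalene, and LSS folds the epoxide into lanosterol, the first sterol. TM7SF2 shares with LBR the reduction that follows removal of the first methyl group. MSMO1, NSDHL and HSD17B7 act in turn to remove the methyl pair on another carbon. EBP moves the remaining ring double bond, SC5D adds another, and DHCR7 reduces one in the closing stretch of the pathway.

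Promoter windows from RefSeq (GRCh38.p14, 250 bases before to 50 after a start site) were found for 8 of the 9 enzymes, with 10 windows in all because SC5D and DHCR7 have 2 each. Of these, 9 windows, covering 8 of 8 genes, held the letters CCAAT on either strand, against 34.6% of all 35116 windows. The GC box letters GGGCGG, also on either strand, were found in 8 windows covering 7 genes, against 45% of all windows. The TCF letters CTTTGT stood in 3 windows, those of EBP and SC5D, against 16.1% of all windows, while CTTTGA (12.9% of all) and the sterol element TCACNCCAC (1.13% of all) had no match in the 10. These are matches of letters and not sites. The 2 windows of SC5D overlap and share 1 CTTTGT and 1 CCAAT match, so each of those is counted in both windows. The number of CCAAT matches was 5 for NSDHL, 4 for MSMO1, 3 for EBP, 2 for HSD17B7, 2 and 0 in the windows of DHCR7, and 1 in each window of LSS, TM7SF2 and SC5D. The promoters of MSMO1 and LSS are shown because these are the enzymes that passed the test across lines. Their 250 bases before the RefSeq start site are shown 5′ to 3′ on the gene's own strand. Each CCAAT, read on either strand, is in capitals. The gene spans given below are from GENCODE v29. For every enzyme with a window but HSD17B7, they begin upstream of these RefSeq start sites. Part of each printed stretch, and all of the EBP, SC5D and DHCR7 windows, thus lies within those spans. The MSMO1 window is chr4:165327419-165327668 on the plus strand and the LSS window chr21:46228775-46229024 on the minus strand.
MSMO1: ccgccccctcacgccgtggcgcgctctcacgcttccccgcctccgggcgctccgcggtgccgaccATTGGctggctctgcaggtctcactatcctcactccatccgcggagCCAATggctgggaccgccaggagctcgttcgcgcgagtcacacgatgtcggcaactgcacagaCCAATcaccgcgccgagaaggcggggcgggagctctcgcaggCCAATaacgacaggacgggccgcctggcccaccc
LSS: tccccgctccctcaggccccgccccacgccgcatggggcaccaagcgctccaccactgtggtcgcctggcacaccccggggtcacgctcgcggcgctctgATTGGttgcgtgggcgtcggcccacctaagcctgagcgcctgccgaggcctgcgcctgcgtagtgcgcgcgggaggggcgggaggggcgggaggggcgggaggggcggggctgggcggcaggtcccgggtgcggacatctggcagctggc

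Depth was close to even. Library totals ran from 7609427 to 8140391 counts, between 19674 and 22120 genes had a read, and 3 counts corresponded to 0.357 to 0.405 CPM (counts per library total after TMM, a trimmed mean of gene ratios). The lanes of a library differed no more than sampling allows, with a chi-square per degree of freedom of 0.99 to 1.02. All 9 T-cell markers examined (CD3D, CD3E, CD3G, CD2, CD5, CD7, LCK, PTCRA, CD1E) exceeded 3 counts in every library. Their summed level was 1630 CPM with PKF118-310 and 2050 CPM in control for CUTLL1, and 2240 CPM with PKF118-310 and 2250 CPM in control for TIB153. These sums hide differences among the markers. In CUTLL1 all 9 were lower with PKF118-310 beyond counting error, with CD1E at 20.4 CPM with PKF118-310 and 117 CPM in control. In TIB153, 3 were lower, among them CD3G at 88.7 CPM with PKF118-310 and 158 CPM in control, and 3 were higher, among them CD3D at 395 CPM with PKF118-310 and 330 CPM in control. Of 5 B-cell markers only CD79A exceeded 3 counts in all libraries, and their summed level was 14.2 CPM with PKF118-310 and 10.9 CPM in control for CUTLL1, and 104 CPM with PKF118-310 and 79.1 CPM in control for TIB153. No myeloid marker of 5 and no erythroid marker of 3 did so, and of 3 stroma markers COL1A1 did, with 19 counts with PKF118-310 and 21 in control in CUTLL1, and 33 with PKF118-310 and 38 in control in TIB153. The part of these marker differences in the results below was not tested. In bulk RNA, fewer cells of a kind and less RNA per cell cannot be told apart.

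Across both lines, MSMO1 was higher and LSS lower after PKF118-310, and the other 7 enzymes did not pass the test. The fit was edgeR's quasi-likelihood test with cell line as a term, in which n = 2 lines leave 1 residual degree of freedom and the spread is pooled over genes. The SE given with each change rests on that pooled spread. It does not measure the gap between the line ratios of a single gene, which are given beside it. Of 13280 genes, 6.1% were called higher and 6.84% lower, and 1 of the 9 enzymes was called in each direction. Without the line term neither was called. The median log2 change of the 9 enzymes was 0.01, and that of all genes was 0. Within each line a 95% interval was formed from the reads alone, and a gene was said to differ beyond counting error where that interval excluded no change. By this rule 23.3% of genes were higher and 24% lower in CUTLL1, and 25.1% higher and 28.8% lower in TIB153. The enzymes gave 2 higher (MSMO1, SC5D) and 4 lower (SQLE, LSS, HSD17B7, DHCR7) in CUTLL1, and 4 higher (SQLE, MSMO1, SC5D, DHCR7) and 1 lower (LSS) in TIB153. The intervals cover counting error only and give no p-value.

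**Figure D1:**
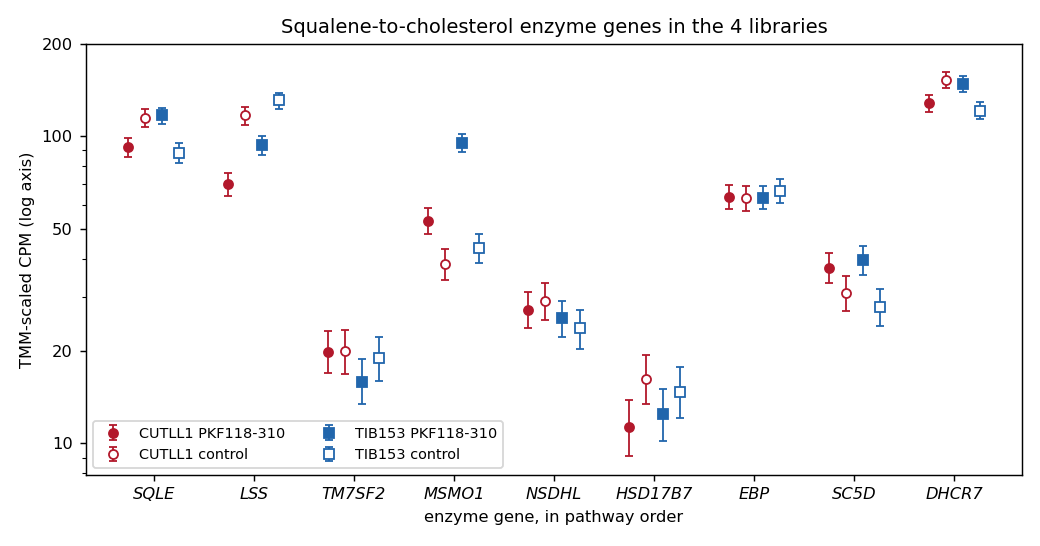
TMM-scaled CPM (log axis) of the 9 enzyme genes in pathway order, with filled symbols for PKF118-310 libraries, open symbols for control libraries, circles for CUTLL1 and squares for TIB153. Bars are exact 95% counting intervals of 1 library. MSMO1 stood at 95.2 CPM in TIB153 with PKF118-310, above its other libraries (38.3 to 53.1 CPM), and LSS was lower with PKF118-310 than in control in both lines.

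SQLE, the monooxygenase that commits squalene to sterols and a known point of control, moved in opposite directions in the lines. Its gene (ENSG00000104549.11) spans bases 124998497 to 125022283 of chromosome 8 on the plus strand (hg38). In CUTLL1 it had 740 counts (92.2 CPM) with PKF118-310 and 852 counts (115 CPM) in control, a log2 ratio of -0.32 (95% counting interval -0.46 to -0.18). In TIB153 it had 981 counts (117 CPM) with PKF118-310 and 682 counts (88.6 CPM) in control, a log2 ratio of 0.40 (0.25 to 0.54). CUTLL1 control and treated TIB153 were thus the high libraries and nearly level with each other. Across lines the change was 0.04 ± 0.17 on the log2 scale (SE, n = 2 lines; edgeR adjusted p = 0.903).

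LSS, the cyclase that makes lanosterol, was lower with PKF118-310 in both lines. The gene (ENSG00000160285.14) lies at 46188141 to 46228824 of chromosome 21 on the minus strand. CUTLL1 gave 561 counts (69.9 CPM) with PKF118-310 and 866 counts (117 CPM) in control, a log2 ratio of -0.74 (-0.90 to -0.59). TIB153 gave 786 counts (93.5 CPM) with PKF118-310 and 1006 counts (131 CPM) in control, a log2 ratio of -0.48 (-0.62 to -0.35). Both treated libraries lay below both controls. The log2 change across lines was -0.61 ± 0.13 (SE, n = 2 lines; edgeR adjusted p = 0.0107), a fold of 0.655. DESeq2 gave the same size, -0.61, with an adjusted p of 0.0648, which missed the threshold of 0.05. Of the exonic bases of LSS, 7.88% overlap a pair of genes on the opposite strand, and no source used here gives the strand setting that was used to count.

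**Figure D2:**
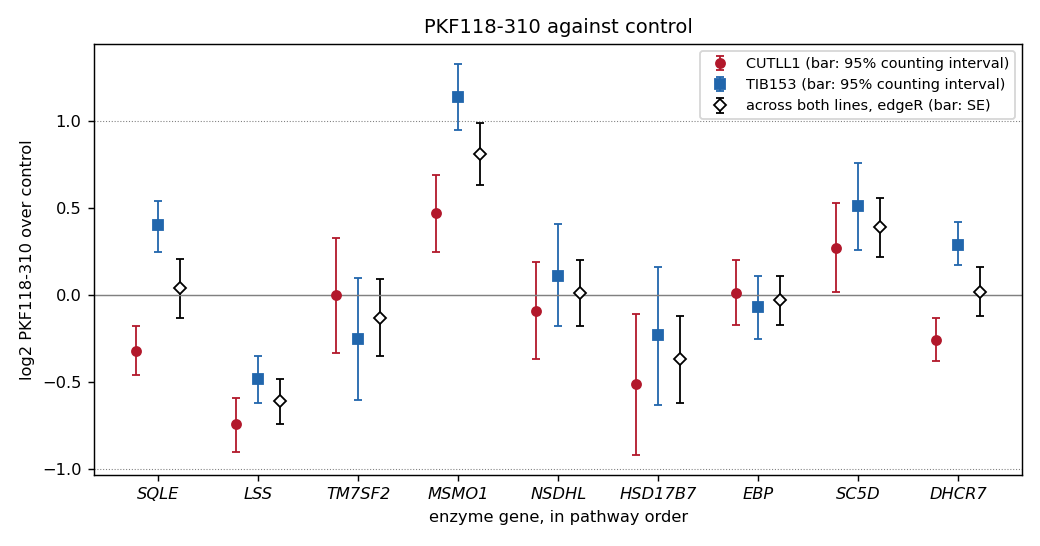
Log2 ratio of PKF118-310 over control for each enzyme gene in pathway order. Circles are CUTLL1 and squares TIB153, with 95% counting intervals. Diamonds are the edgeR change across both lines (n = 2 lines) ± SE, which rests on spread pooled over genes. Dotted lines mark 2-fold. MSMO1 (0.47 and 1.14) and LSS (-0.74 and -0.48) lay on the same side of 0 in both lines, and SQLE and DHCR7 lay on opposite sides.

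TM7SF2, a sterol reductase of the endoplasmic reticulum, was among the lower-expressed enzymes and showed no difference beyond counting error. It lies at 65111845 to 65116384 of chromosome 11 on the plus strand (ENSG00000149809.14). Counts in CUTLL1 were 160 (19.9 CPM) with PKF118-310 and 148 (20 CPM) in control, a log2 ratio of 0.00 (-0.33 to 0.33). Counts in TIB153 were 134 (15.9 CPM) with PKF118-310 and 146 (19.0 CPM) in control, a log2 ratio of -0.25 (-0.60 to 0.10). Changes within these intervals were not detectable at this depth, and across lines the change was -0.13 ± 0.22 (SE, n = 2 lines; edgeR adjusted p = 0.748). LBR, a nuclear envelope protein that carries the same reductase activity, had far more RNA. Per kilobase of exon, LBR stood at 233 TPM (counts per length, scaled to the same sum in each library) with PKF118-310 and 260 TPM in control in CUTLL1, and at 144 TPM with PKF118-310 and 185 TPM in control in TIB153, while TM7SF2 ranged from 17.4 to 22.8 TPM over the 4 libraries. LBR's log2 ratio was -0.26 (-0.34 to -0.18) in CUTLL1 and -0.37 (-0.46 to -0.27) in TIB153, and the change across lines of -0.31 ± 0.12 did not pass (SE, n = 2 lines; edgeR adjusted p = 0.112).

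The enzymes that remove the methyl pair did not move together. MSMO1, the methyl oxidase that opens that sequence, had the highest ratio of the 9 in each line. Its gene (ENSG00000052802.12) lies at 165327623 to 165343160 of chromosome 4 on the plus strand. CUTLL1 had 426 counts (53.1 CPM) with PKF118-310 and 284 counts (38.3 CPM) in control, a log2 ratio of 0.47 (0.25 to 0.69). TIB153 had 800 counts (95.2 CPM) with PKF118-310 and 333 counts (43.3 CPM) in control, a log2 ratio of 1.14 (0.95 to 1.33). Both treated libraries lay above both controls. Over the control of its own line, the treated library stood 1.38-fold higher in CUTLL1 and 2.2-fold higher in TIB153. The log2 change across lines was 0.81 ± 0.18 (SE, n = 2 lines; edgeR adjusted p = 0.0131), a fold of 1.76, with a DESeq2 adjusted p of 0.0488. MSMO1 in TIB153 was the only one of the 9 past 2-fold in either line. Its interval there reached slightly below 2-fold. A ratio of 2-fold or more was counted where its interval excluded no change, even if it included less than 2-fold. By that rule 5.47% of all genes rose in TIB153 and 4.8% in CUTLL1, and 2.13% and 2.21% dropped.

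NSDHL, the dehydrogenase that decarboxylates the oxidised intermediate, differed by less than counting error in both lines. It lies at 152830967 to 152869729 of chromosome X on the plus strand (ENSG00000147383.10). CUTLL1 had 219 counts (27.3 CPM) with PKF118-310 and 215 counts (29 CPM) in control, a log2 ratio of -0.09 (-0.37 to 0.19). TIB153 had 215 counts (25.6 CPM) with PKF118-310 and 182 counts (23.7 CPM) in control, a log2 ratio of 0.11 (-0.18 to 0.41). Its change across lines was 0.01 ± 0.19 (SE, n = 2 lines; edgeR adjusted p = 0.978). HSD17B7, the ketosteroid reductase that completes the removal, had the fewest reads of the 9. Its gene (ENSG00000132196.14) lies at 162790702 to 162812817 of chromosome 1 on the plus strand. CUTLL1 had 91 counts (11.3 CPM) with PKF118-310 and 120 counts (16.2 CPM) in control, a log2 ratio of -0.51 (-0.92 to -0.11), an interval that included 0 with the first lane alone. TIB153 had 105 counts (12.5 CPM) with PKF118-310 and 113 counts (14.7 CPM) in control, a log2 ratio of -0.23 (-0.63 to 0.16). Across lines the change was -0.37 ± 0.25 (SE, n = 2 lines; edgeR adjusted p = 0.348). HSD17B7 has a close pseudogene copy, HSD17B7P2, and counting may have split reads between them, so its values are uncertain. HSD17B7P2 had 13 counts with PKF118-310 and 17 in control in CUTLL1, and 15 with PKF118-310 and 2 in control in TIB153. With those reads added, the log2 ratio was -0.51 (-0.90 to -0.14) in CUTLL1 and -0.07 (-0.45 to 0.32) in TIB153.

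EBP, the isomerase, was the steadiest enzyme of the set. It lies at 48521158 to 48528716 of chromosome X on the plus strand (ENSG00000147155.10). CUTLL1 had 510 counts (63.5 CPM) with PKF118-310 and 466 counts (62.9 CPM) in control, and TIB153 had 531 counts (63.2 CPM) with PKF118-310 and 511 counts (66.4 CPM) in control. The log2 ratios were 0.01 (-0.17 to 0.20) in CUTLL1 and -0.07 (-0.25 to 0.11) in TIB153, and the 4 libraries lay within 62.9 to 66.4 CPM. Across lines its change was -0.03 ± 0.14 (SE, n = 2 lines; edgeR adjusted p = 0.916).

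SC5D, the desaturase, was higher with PKF118-310 in both lines by the counting rule but did not pass the test across lines. The gene (ENSG00000109929.9) lies at 121292453 to 121308694 of chromosome 11 on the plus strand. CUTLL1 had 300 counts (37.4 CPM) with PKF118-310 and 229 counts (30.9 CPM) in control, a log2 ratio of 0.27 (0.02 to 0.53). TIB153 had 333 counts (39.6 CPM) with PKF118-310 and 214 counts (27.8 CPM) in control, a log2 ratio of 0.51 (0.26 to 0.76). The treated libraries were the upper pair. The interval in CUTLL1 included 0 with either lane alone. Across lines the change was 0.39 ± 0.17 (SE, n = 2 lines; edgeR adjusted p = 0.154).

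DHCR7, the reductase mutated in Smith-Lemli-Opitz syndrome, moved in opposite directions in the lines, as SQLE did. It lies at 71428193 to 71452868 of chromosome 11 on the minus strand (ENSG00000172893.15). CUTLL1 had 1026 counts (128 CPM) with PKF118-310 and 1130 counts (153 CPM) in control, a log2 ratio of -0.26 (-0.38 to -0.13). TIB153 had 1248 counts (148 CPM) with PKF118-310 and 933 counts (121 CPM) in control, a log2 ratio of 0.29 (0.17 to 0.42). As for SQLE, CUTLL1 control and treated TIB153 were the higher libraries. Across lines the change was 0.02 ± 0.14 (SE, n = 2 lines; edgeR adjusted p = 0.949).

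Set among all genes, the enzymes' median log2 ratio was -0.09 in CUTLL1 and 0.11 in TIB153, against 0 and -0.01 for all genes, and the median absolute ratio was 0.27 and 0.29, against 0.29 and 0.34. MSMO1 and SC5D were higher beyond counting error in both lines, as were 13.1% of all genes, and LSS was lower in both, as were 15.8%. Lower in CUTLL1 and higher in TIB153, each beyond counting error, were 1.4% of all genes (186 of 13280), SQLE and DHCR7 among them. Depth bears on these comparisons, as genes with many reads, such as SQLE and DHCR7, pass the counting rule more easily. Genes with few reads have noisier ratios. All genes are therefore not a base matched to the enzymes. Summed over the 9 enzymes, CUTLL1 had 4033 counts (502 CPM) with PKF118-310 and 4310 counts (582 CPM) in control, a log2 ratio of -0.21 (-0.27 to -0.15). TIB153 had 5133 counts (611 CPM) with PKF118-310 and 4120 counts (535 CPM) in control, a log2 ratio of 0.19 (0.13 to 0.25). The sum was therefore lower in treated CUTLL1 and higher in treated TIB153, and the largest single difference within it was that of LSS in CUTLL1 and that of MSMO1 in TIB153.

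**Figure D3:**
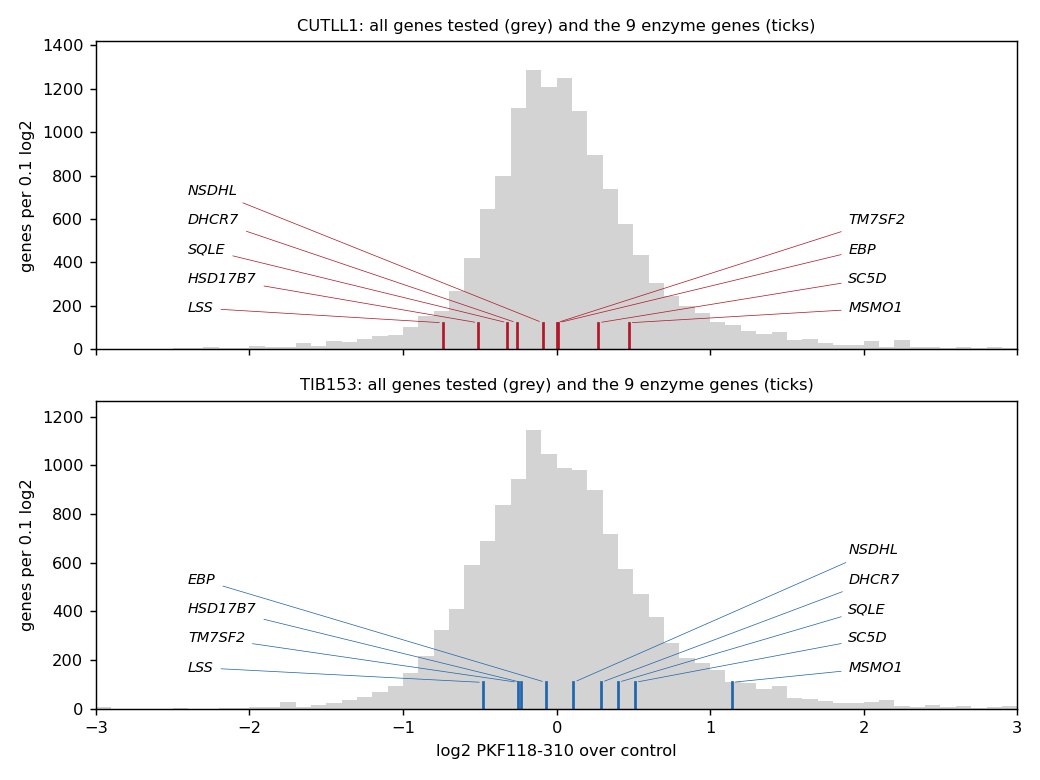
Number of genes per 0.1 log2 of the ratio of PKF118-310 over control, for all 13280 genes tested (grey), in CUTLL1 (upper panel) and TIB153 (lower panel); genes beyond 3 on either side are not drawn. Ticks mark the 9 enzyme genes, which run between -0.74 and 0.47 in CUTLL1 and between -0.48 and 1.14 in TIB153.

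Ratios of reads within a library need no scaling between libraries. MSMO1 was set against LSS because these were called in opposite directions, so their ratio and shares describe the same differences without scaling and are no further support. In CUTLL1, MSMO1 had 0.759 reads per LSS read with PKF118-310 (95% counting interval 0.668 to 0.863) and 0.328 in control (0.286 to 0.375). In TIB153 the same ratio was 1.02 with PKF118-310 (0.921 to 1.12) and 0.331 in control (0.292 to 0.375). The controls of both lines were nearly level and the treated libraries were higher, without overlap of intervals. SC5D per LSS read was 0.535 with PKF118-310 and 0.264 in control in CUTLL1, and 0.424 with PKF118-310 and 0.213 in control in TIB153. That ratio carries the drop of LSS as well as the rise of SC5D. EBP, the steady enzyme, changed little in these same libraries. Ratios to it therefore repeat the SQLE and DHCR7 ratios above and are no further support. Against EBP the direction differed between lines. SQLE per EBP read was 1.45 with PKF118-310 (1.29 to 1.63) and 1.83 in control (1.63 to 2.05) in CUTLL1, and 1.85 with PKF118-310 (1.66 to 2.06) and 1.33 in control (1.19 to 1.5) in TIB153. DHCR7 per EBP read was 2.01 with PKF118-310 and 2.42 in control in CUTLL1, and 2.35 with PKF118-310 and 1.83 in control in TIB153.

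As a share of the reads of the 9 enzymes, MSMO1 took 10.6% with PKF118-310 (exact binomial 95% interval 9.63 to 11.6) and 6.59% in control (5.87 to 7.37) in CUTLL1. In TIB153 its share was 15.6% with PKF118-310 (14.6 to 16.6) and 8.08% in control (7.27 to 8.96). LSS took 13.9% with PKF118-310 (12.9 to 15.0) and 20.1% in control (18.9 to 21.3) in CUTLL1, and 15.3% with PKF118-310 (14.3 to 16.3) and 24.4% in control (23.1 to 25.8) in TIB153. The reads of the set thus held more MSMO1 and less LSS in both treated libraries.

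**Figure D4:**
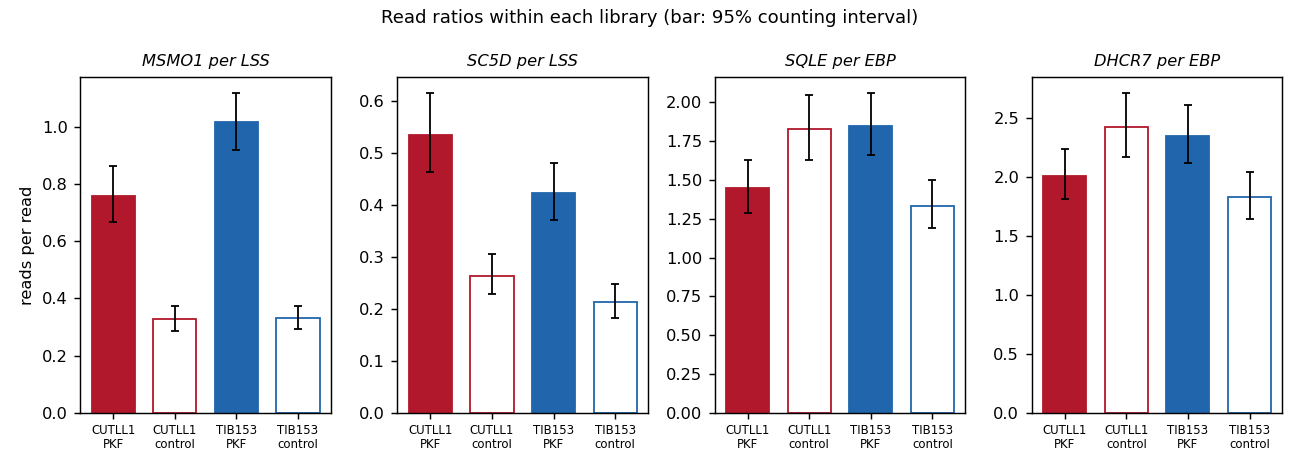
Reads of one enzyme gene per read of another within each library, with filled bars for PKF118-310 and open bars for control, CUTLL1 in red and TIB153 in blue, and black lines for exact 95% counting intervals. MSMO1 per LSS stood at 0.759 and 1.02 with PKF118-310 and at 0.328 and 0.331 in control, while SQLE per EBP and DHCR7 per EBP were lower with PKF118-310 in CUTLL1 and higher in TIB153.

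Levels of different enzymes were set side by side per kilobase of exon, as TPM. The length is the union of all annotated exons, which can exceed the transcript in use. For TM7SF2 it is 3408 bases in a gene span of 4540. The order below carries this length error, which counting intervals leave out. In CUTLL1 with PKF118-310 the order was DHCR7 (120 TPM), EBP (103), SQLE (83.6), MSMO1 (71.7), NSDHL (53.4), LSS (37.7), SC5D (26.2), TM7SF2 (22.8) and HSD17B7 (9.27), and only SC5D and TM7SF2 were neighbours within counting error. In CUTLL1 control the order was DHCR7 (134 TPM), SQLE (97.5), EBP (95.3), LSS (59.0), NSDHL (53.1), MSMO1 (48.4), TM7SF2 (21.4), SC5D (20.3) and HSD17B7 (12.4), where SQLE and EBP, LSS and NSDHL, NSDHL and MSMO1, and TM7SF2 and SC5D could not be ordered. DHCR7 had the highest value and HSD17B7 the lowest in all 4 libraries. In TIB153 with PKF118-310 MSMO1 (122 TPM) came next to DHCR7 (133 TPM) and was not distinguishable from it, with a log2 difference per length of 0.12 (-0.01 to 0.25). SQLE (101 TPM), EBP (97.5), LSS (48.1), NSDHL (47.7), SC5D (26.5), TM7SF2 (17.4) and HSD17B7 (9.72) followed, with SQLE and EBP, and LSS and NSDHL, within counting error. In TIB153 control MSMO1 stood at 55.4 TPM, below DHCR7 (108), EBP (102), SQLE (76.3) and LSS (66.9) and above NSDHL (43.9), TM7SF2 (20.6), SC5D (18.5) and HSD17B7 (11.4). There DHCR7 and EBP, and TM7SF2 and SC5D, were within counting error. LSS ranked below NSDHL in treated CUTLL1 and level with it in treated TIB153, and above or level with it in the controls.

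The control libraries of the lines were compared next, CUTLL1 over TIB153, a comparison that shares its libraries with the within-line ratios above. SQLE, DHCR7 and NSDHL were higher in CUTLL1 beyond counting error and LSS was lower. Of all genes, 27.6% were higher and 27.8% lower by this rule, and 6.12% and 9.45% by at least 2-fold, which none of the 9 reached. SQLE was at 115 CPM in CUTLL1 control and 88.6 CPM in TIB153 control, a log2 ratio of 0.38 (0.23 to 0.52). DHCR7 was at 153 CPM in CUTLL1 control and 121 CPM in TIB153 control, a log2 ratio of 0.33 (0.20 to 0.46). NSDHL was at 29 CPM in CUTLL1 control and 23.7 CPM in TIB153 control, a log2 ratio of 0.29 whose interval (0.00 to 0.59) just excluded 0 before rounding and included it with total counts or with either lane alone. LSS was at 117 CPM in CUTLL1 control and 131 CPM in TIB153 control, a log2 ratio of -0.16 (-0.29 to -0.03), an interval that included 0 with the second lane alone. The other 5 enzymes lay between -0.17 (MSMO1, -0.41 to 0.06) and 0.15 (SC5D, -0.12 to 0.43). The median absolute log2 difference of the 9 was 0.16, against 0.34 for all genes, many of which had fewer reads and so noisier ratios. With 1 library of each line, a difference between lines and a difference between cultures cannot be told apart.

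**Figure D5:**
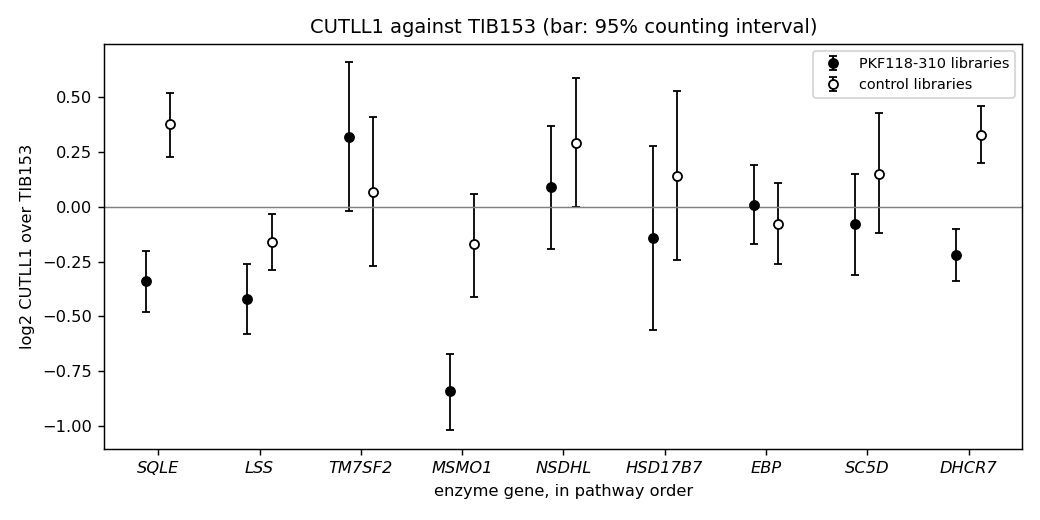
Log2 ratio of CUTLL1 over TIB153 for each enzyme gene, in PKF118-310 libraries (filled) and control libraries (open), with 95% counting intervals of 1 library on each side. SQLE was at -0.34 with PKF118-310 and 0.38 in control, DHCR7 at -0.22 with PKF118-310 and 0.33 in control, and MSMO1 at -0.84 with PKF118-310 and -0.17 in control.

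In the treated libraries the lines stood the other way round for SQLE and DHCR7. CUTLL1 over TIB153 with PKF118-310 gave log2 ratios of -0.34 (-0.48 to -0.20) for SQLE and -0.22 (-0.34 to -0.10) for DHCR7. MSMO1 stood at -0.84 (-1.02 to -0.67) and LSS at -0.42 (-0.58 to -0.26), and the other 5 had intervals that included 0. The difference of the responses, the CUTLL1 log2 ratio minus that of TIB153, is the same quantity as the treated difference between lines minus the control difference. It was -0.72 (-0.92 to -0.52) for SQLE, -0.67 (-0.95 to -0.38) for MSMO1, -0.55 (-0.72 to -0.37) for DHCR7 and -0.26 (-0.46 to -0.05) for LSS. In these 4 the log2 ratio was higher in TIB153 beyond counting error, as in 14% of all genes. With the second lane alone this held in 3, without LSS. In none of the 9 was the log2 ratio higher in CUTLL1 beyond counting error, as in 19.2% of all genes. For LSS the higher ratio was a smaller drop in TIB153, for MSMO1 a larger rise, and for SQLE and DHCR7 a rise where CUTLL1 fell. The difference of the responses was -0.24 (-0.59 to 0.11) for SC5D, -0.20 (-0.59 to 0.19) for NSDHL, -0.28 (-0.83 to 0.27) for HSD17B7, 0.09 (-0.17 to 0.34) for EBP and 0.25 (-0.22 to 0.71) for TM7SF2. With 1 library per group there is no test of this difference.

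Among neighbours of the 9 in the distal arm, CYP51A1, the demethylase between LSS and TM7SF2, shares 79.4% of its exonic bases with other annotated genes on its strand and had 24 counts with PKF118-310 and 16 in control in CUTLL1, and 0 with PKF118-310 and 1 in control in TIB153. Its level could not be read from these counts. Of the 4 other distal genes reported here (CYP51A1, LBR, ERG28, FAXDC2), 3 were tested, and none was called in either direction by edgeR or DESeq2. By edgeR at an unadjusted p under 0.05, 1 was higher and 1 lower, a threshold that 13.8% of all genes passed as higher and 14.9% as lower.

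In the proximal arm, 9 genes are reported here and all were tested (ACAT2, HMGCS1, MVK, PMVK, MVD, IDI1, FDPS, FDFT1, GGPS1). Of these, 1 was called lower and none higher across lines by either edgeR or DESeq2, with 1 higher and 2 lower by edgeR at an unadjusted p under 0.05. Among all genes edgeR called 6.1% higher and 6.84% lower, and 13.8% and 14.9% passed the unadjusted threshold. The gene called lower was FDPS, farnesyl diphosphate synthase, with 130 CPM with PKF118-310 and 197 CPM in control in CUTLL1, and 158 CPM with PKF118-310 and 296 CPM in control in TIB153. Its log2 change across lines was -0.75 ± 0.13 (SE, n = 2 lines; edgeR adjusted p = 0.00335). Of the exonic bases of FDPS, 18.6% overlap RUSC1-AS1 on the opposite strand, so the unknown strand setting bears on it too. The median change across lines was -0.07 for the 9 genes.

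Of 8 genes for sterol sensing reported here (SREBF2, SREBF1, SCAP, INSIG1, INSIG2, MBTPS1, MBTPS2, STARD4), all were tested, and neither edgeR nor DESeq2 called any in either direction across lines. By edgeR at an unadjusted p under 0.05, 1 was higher and 1 lower, against the same shares of all genes. SREBF2 itself stood at 249 CPM with PKF118-310 and 233 CPM in control in CUTLL1, and at 220 CPM with PKF118-310 and 236 CPM in control in TIB153. Its change across lines was 0.00 ± 0.12 (SE, n = 2 lines; edgeR adjusted p = 0.994). INSIG1, which holds the SREBF2 complex in the endoplasmic reticulum and is itself a target of it, was at 174 CPM with PKF118-310 and 224 CPM in control in CUTLL1, and at 361 CPM with PKF118-310 and 303 CPM in control in TIB153, with log2 ratios of -0.37 (-0.47 to -0.26) and 0.25 (0.17 to 0.33). As with SQLE and DHCR7, it was lower in treated CUTLL1 and higher in treated TIB153. The T-cell markers CD3D (-0.29 in CUTLL1 and 0.26 in TIB153), CD5 (-0.55 and 0.18) and LCK (-0.14 and 0.10) did the same beyond counting error, and their part in this pattern was not tested.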

How the data were processed

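Libraries were prepared from poly(A) RNA with a stranded kit. Each was run in 2 lanes, and the 8 lane files that the authors deposited hold raw read counts per gene. Tools named in the submitters' processing notes are HISAT2, HTSeq and DESeq2, and the build is hg38. Their versions and counting parameters are not given in the sources used here. The gene coordinates match GENCODE v29, whose exons gave lengths and overlaps; file starts, which count from 0, are printed counting from 1. The authors' tables of treated against control cells hold only genes under an adjusted p of 0.05, with fold changes, p-values and 8 count columns that match no lane file, and were not used.

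Lanes were summed and genes with low counts removed with filterByExpr. Scaling was by TMM on library totals over all genes. Log2 ratios within a line and between controls used a pseudocount of 0.5 counts and the exact (Clopper-Pearson) 95% interval of the binomial share, which covers counting error only, as PCR reads are not independent molecules. Intervals of differences of ratios used a normal approximation to the counts. Across lines, edgeR 4.0.16 in R 4.3.3 with limma 3.58.1 fitted line and treatment (glmQLFit, robust, median prior degrees of freedom 13). Benjamini-Hochberg adjustment was over 13280 genes. The study describes 2 control and 2 treated samples per line, but the labels give 2 lanes of 1 library in each group and were followed. The p-values therefore rest on spread between these libraries, which leave 1 residual degree of freedom, and mostly on spread pooled over genes. The SE across lines was the absolute log2 change divided by the square root of the quasi-likelihood F statistic. DESeq2 1.42.0 was an alternative, as were other scalings, filters, pseudocounts, fold limits, single lanes and a fit without the line term. TPM were computed from the counts over exon unions. The script was tested on simulated data in which both lines changed by the same fold, so that test does not cover lines that respond differently. The text names all 9 enzymes, LBR, CYP51A1, HSD17B7P2, SREBF2, INSIG1, and any listed gene called across lines. Some genes of these pathways are not reported here, so the lists are partial. The members and lists were chosen with earlier results of these data known.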

Additional observations from a re-analysis of the deposited data

Results flagged for a closer look

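Among the genes named, 7 lay on opposite sides of no change in the lines, each beyond counting error, with 1 library per group, so that the difference was not tested. SQLE had a log2 ratio of PKF118-310 over control of -0.32 in CUTLL1 and 0.40 in TIB153, a difference of -0.72. DHCR7 had -0.26 in CUTLL1 and 0.29 in TIB153, a difference of -0.55. INSIG1 had -0.37 in CUTLL1 and 0.25 in TIB153, a difference of -0.62. SREBF2 had 0.10 in CUTLL1 and -0.10 in TIB153, a difference of 0.19, with both intervals ending within rounding of 0. The T-cell markers CD3D (-0.29 in CUTLL1 and 0.26 in TIB153, a difference of -0.54), CD5 (-0.55 in CUTLL1 and 0.18 in TIB153, a difference of -0.73) and LCK (-0.14 in CUTLL1 and 0.10 in TIB153, a difference of -0.24) did so too. The pattern of these genes other than SREBF2, lower in CUTLL1 and higher in TIB153, was shared by 186 of 13280 genes.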

How the results depend on the processing

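The limits are those of 1 library per group and of n = 2 lines across them. Among the 9 enzymes the ratios within lines and between controls moved by at most 0.02 (log2) with DESeq2 size factors, 0.07 with total counts, 0.04 with no filter on low counts and 0.01 with a pseudocount of 2 counts, and by up to 0.33 with single lanes. No ratio beyond counting error changed direction under these settings, while 8 of 54 values, all within counting error with both lanes, changed sign with a single lane, to between -0.16 and 0.08. Total counts moved the median of all genes by 0.05 in each line. Across lines, total counts gave 827 genes higher and 552 lower, against 810 and 909, and placed EBP at 0.03 in place of -0.03. With no filter, NSDHL was at -0.02 (0.01 with the filter) and DHCR7 at -0.01 (0.02 with it). The DESeq2 Wald test called 200 genes higher and 258 lower, with MSMO1 among the enzymes higher and 0 lower, LSS being at -0.61 with an adjusted p of 0.0648 and the 1 enzyme lower at an unadjusted p under 0.05. Without the line term, edgeR called 0 genes higher and 0 lower, and so 0 enzymes in either direction, with LSS at -0.60 and MSMO1 at 0.86; at an unadjusted p under 0.05 it gave 433 genes higher and 457 lower, among them 0 enzymes higher and 1 lower. MSMO1 and LSS kept their calls in the 4 other fits (size factors, total counts, no filter, no robust estimation). Leaving out a line leaves the ratio of the other line and no test: between 0.47 and 1.14 for MSMO1, -0.74 and -0.48 for LSS, 0.27 and 0.51 for SC5D, -0.32 and 0.40 for SQLE, and -0.26 and 0.29 for DHCR7. In CUTLL1, enzymes higher beyond counting error numbered 1, not 2, with no filter and with either lane alone, SC5D being the one lost, and enzymes lower numbered 3, not 4, with the first lane alone, without HSD17B7. With the second lane alone 2 enzymes were lower in TIB153 (TM7SF2 joining LSS) and 0 in CUTLL1 control against TIB153 control. Enzymes higher in CUTLL1 control numbered 2, not 3, with total counts and with either lane alone, without NSDHL. With a 1.5-fold limit in place of 2-fold, genes higher and lower numbered 1256 and 849 in CUTLL1, where 1 enzyme (LSS) was then counted as lower, 1508 and 1314 in TIB153, and 1426 and 2013 between controls. Of 5 alternatives chosen after seeing the data, 4 left the count of enzymes whose log2 ratio was higher in TIB153 than in CUTLL1 at 4, and the second lane alone gave 3, without LSS. No paired analysis by replicate number was possible because each group held 1 library; the line term pairs treated with control. The cause of these differences was not tested.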
